A study of Mus musculus with 2 samples.

Results

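The Pax6 locus was described through its chromatin accessibility, as 27 of the 119502 intervals of an ATAC-seq count table. ATAC-seq uses the Tn5 transposase to place sequencing adapters into open chromatin. Members were the intervals whose nearest start site of a protein-coding gene was one of Pax6, together with all intervals in a window of 400 kb of chromosome 2 that holds the gene (mm10), the first of which started at 105504112 and the last of which ended at 105796532. The nearest-gene rule gave 18 intervals, all of them inside that window, and the window added 9 more, of which 6 lay nearest to Rcn1 and 3 nearest to Elp4. The choice used position alone and no count.

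The cells were neural progenitors made from the mouse embryonic stem cell line Olig2-mKate2, in which a red fluorescent protein reports Olig2, the gene that defines progenitors of motor neurons (pMN). Day 5 cells were taken after treatment with 100 nM retinoic acid (RA) and 100 nM SAG, which activates Sonic hedgehog signalling, and 50000 live sorted cells entered each transposition. There was 1 group, LIVE_ATAC, with 2 replicates and no control, so no groups were compared. Per the study, mKate2 fluorescence chose the cells, and such a gate can also hold newly formed motor neurons and cells that coexpress OLIG2 and NKX2.2.

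Pax6 encodes a transcription factor with a paired domain and a homeodomain, and it is required for the eye, for parts of the brain and for the endocrine pancreas. In the ventral neural tube it is present at a graded level in progenitors, where it takes part in setting the boundary with the most ventral progenitor domain (p3). Its transcription starts at the upstream promoters P0 and P1 and at an internal promoter, P alpha (Pα), which gives a shorter protein that lacks the paired domain. Tissue-specific enhancers lie before the gene, within its introns and far downstream, within introns of Elp4, a gene that encodes a subunit of the Elongator complex.

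The sequences of the 3 promoters are shown because the promoters differed in accessibility. Each is the 300 bases of the plus strand of mm10 that end just before a start site, and Pax6 itself runs on the plus strand from 105668900 to 105697364. The start sites were the RefSeq positions for P0 and Pα and the first protein-coding transcript start that GENCODE places within the P1 interval. The P0 window is chr2:105668596-105668895, the P1 window is chr2:105674891-105675190 and the Pα window is chr2:105681868-105682167. RefSeq places the P1 start further on, at 105675434, and a P1 promoter fragment at chr2:105675224-105675805. The P1 window thus lies before that fragment and shares no base with it. Capitals mark matches, on either strand, to any of 10 short motifs that are spelled out after the sequences.
P0: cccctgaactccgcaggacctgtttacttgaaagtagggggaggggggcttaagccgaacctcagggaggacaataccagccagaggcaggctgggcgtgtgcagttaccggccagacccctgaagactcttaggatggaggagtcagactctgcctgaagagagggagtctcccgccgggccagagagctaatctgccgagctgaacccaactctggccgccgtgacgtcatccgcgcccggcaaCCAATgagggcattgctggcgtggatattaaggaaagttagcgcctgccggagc
P1: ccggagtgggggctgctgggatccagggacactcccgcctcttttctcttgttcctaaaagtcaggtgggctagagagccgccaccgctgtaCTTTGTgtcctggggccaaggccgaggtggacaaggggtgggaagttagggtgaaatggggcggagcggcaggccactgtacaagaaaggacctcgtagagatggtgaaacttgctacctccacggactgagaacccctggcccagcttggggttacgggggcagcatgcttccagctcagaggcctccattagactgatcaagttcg
Pα: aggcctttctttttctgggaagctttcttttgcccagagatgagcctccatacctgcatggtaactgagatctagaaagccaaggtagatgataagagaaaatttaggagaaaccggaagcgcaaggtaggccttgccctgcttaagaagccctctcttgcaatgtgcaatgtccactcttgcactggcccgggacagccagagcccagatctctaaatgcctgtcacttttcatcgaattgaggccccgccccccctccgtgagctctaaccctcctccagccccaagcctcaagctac

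The next sequences are the central 300 bases of the 3 intervals with the highest density among those without a Pax6 start site. They are an intronic element named CE3 in RefSeq, at chr2:105689920-105690219, an interval about 57 kb before P0, at chr2:105611809-105612108, and the SIMO element in an intron of Elp4, at chr2:105779387-105779686. All are given on the plus strand of mm10, with motif matches in capitals.
CE3: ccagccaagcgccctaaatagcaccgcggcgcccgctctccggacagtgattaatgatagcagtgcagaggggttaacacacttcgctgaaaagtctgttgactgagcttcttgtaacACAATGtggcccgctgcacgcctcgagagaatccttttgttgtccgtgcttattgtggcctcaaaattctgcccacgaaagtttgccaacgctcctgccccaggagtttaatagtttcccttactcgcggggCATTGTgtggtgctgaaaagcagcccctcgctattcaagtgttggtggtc
−57 kb: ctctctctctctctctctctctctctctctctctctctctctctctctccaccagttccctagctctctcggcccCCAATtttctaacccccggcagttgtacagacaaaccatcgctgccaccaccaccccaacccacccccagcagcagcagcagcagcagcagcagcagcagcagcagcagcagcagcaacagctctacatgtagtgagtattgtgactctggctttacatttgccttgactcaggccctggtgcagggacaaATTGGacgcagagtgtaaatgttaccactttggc
SIMO: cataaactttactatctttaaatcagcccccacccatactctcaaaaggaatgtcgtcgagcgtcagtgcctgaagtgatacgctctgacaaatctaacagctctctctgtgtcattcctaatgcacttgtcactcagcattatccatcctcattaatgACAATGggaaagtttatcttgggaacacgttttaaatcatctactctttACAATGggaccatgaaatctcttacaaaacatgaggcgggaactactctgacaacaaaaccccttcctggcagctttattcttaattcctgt

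The motifs searched on both strands were ACAAAG and ACAATG for SOX factors, TAATTA for homeodomain factors, the E-box CAGCTG together with the E-boxes CATATG and CATCTG, GACCACCCA for GLI factors, ATGCAAAT for POU factors, CCAAT, and a direct repeat for retinoic acid receptors (DR5). The P0 window held 1 CCAAT, which was present in 37.4% of 32851 RefSeq promoters of the same length (GRCm38.p6). The P1 window held 1 ACAAAG on the minus strand, present in 18.7% of those promoters, and the Pα window held none of the 10. A match is only a description of letters. The CE3 and SIMO windows each held 2 matches to ACAATG, a motif present in the central 300 bases of 21.3% of all 119502 intervals. The window of the −57 kb interval opened with a run of CT repeats and held a run of CAG repeats, and 13.1% of that interval was marked as repeat in the reference.

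P1 was the most accessible Pax6 promoter, P0 the least, and Pα lay between them. Density here is the count divided by a DESeq2 size factor and by the interval length in kb, so intervals of unequal length can be set side by side. At P1 (chr2:105673832-105676733) the density was 1130 normalised counts per kb in replicate 1 and 1113 in replicate 2, a mean of 1121 ± 12.3 (SD, n = 2). At Pα (chr2:105680265-105682972) it was 475 and 509, a mean of 492 ± 24.3. At P0 (chr2:105666546-105670008) it was 184 and 189, a mean of 187 ± 3.57. The libraries of the 3 promoters did not overlap. P1 was 6.01 ± 0.181 times as dense as P0 and 2.28 ± 0.138 times as dense as Pα (mean ± SD of the ratio within each library). The promoters were measured in the same 2 libraries, and an exact paired permutation test over 2 pairs cannot give a two-sided p below 0.5, so these ratios carry no test.

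The raw counts behind the promoters were large. P1 had 3278 counts in replicate 1 and 3230 in replicate 2, Pα had 1286 and 1380, and P0 had 637 and 655. The 3 intervals were unusually wide: P0 spanned 3463 bases, more than 99.8% of all intervals, P1 spanned 2902 and Pα 2708. The part of width in the densities was not tested. By count alone the order of the 3 promoters was the same.

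Against the 16234 intervals that overlap a start site of any protein-coding gene (TSS intervals), whose median density was 742 ± 16.4, P1 stood at percentile 71.9, Pα at 34.6 and P0 at 15.2. By mean normalised count these percentiles were 97.5 for P1, 65.9 for Pα and 35.9 for P0. Pα thus lay below the median TSS interval per kb and above it by count. The interval at P0 held 3 distinct GENCODE start positions of Pax6, that at P1 held 8 and that at Pα held 7. All the starts in the Pα interval belonged to transcripts that GENCODE does not class as protein-coding, while RefSeq places the Pα start there. The 3 intervals overlapped untranslated exons of Pax6 at P0 and P1 and coding exons at Pα.

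**Figure D1:**
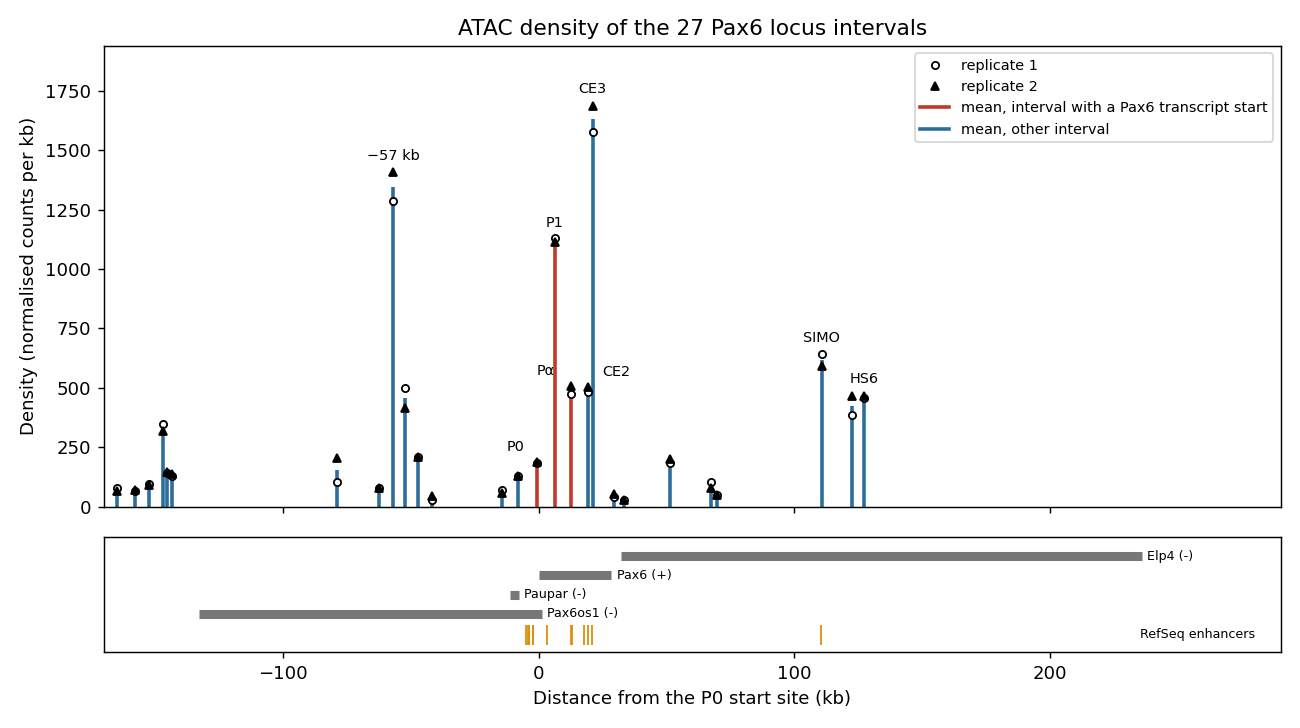
Density (normalised counts per kb) of the 27 intervals against the distance of their midpoint from the P0 start site in kb. Lines show the mean and symbols the 2 replicates, with gene bodies and the starts of RefSeq enhancers below. CE3, the −57 kb interval and P1 stand out with means of 1632, 1348 and 1121, and SIMO follows with 617.

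CE3, an enhancer that RefSeq lists as active in the rhombencephalon, was the densest interval of the locus. The interval (chr2:105689501-105690639, within Pax6 introns) had 1795 counts in replicate 1 and 1922 in replicate 2, which gave a density of 1577 and 1687 and a mean of 1632 ± 77.9 (SD, n = 2). Both libraries lay above both libraries of P1, and the ratio of CE3 to P1 was 1.46 ± 0.0855. By mean normalised count the order turned, with 3254 at P1, 2370 at the −57 kb interval and 1858 at CE3. Among the 103268 intervals without a protein-coding start site, here called distal, CE3 ranked 422nd by density, and it was denser than 89.4% of TSS intervals. The interval, of 1139 bases, covered the whole annotated CE3 element of 501 bases. It also held 59.8% of a DNase I hypersensitive site that RefSeq names CE3 and CE4. Its single count cannot be assigned to the CE3 element alone.

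The second densest interval lay about 57 kb before P0, within an intron of Pax6os1, a long non-coding RNA gene antisense to Pax6. This interval (chr2:105611080-105612838) had 2265 counts in replicate 1 and 2476 in replicate 2, a density of 1288 and 1407 and a mean of 1348 ± 84.0. It was 1.20 ± 0.0882 times as dense as P1, and all its values lay below those of CE3. No RefSeq functional element overlapped it. By count it held 18.7% of all counts at the locus, second to P1 with 25.7%.

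SIMO, a long-range enhancer for which RefSeq lists lens, retina, diencephalon and hindbrain activity, came next among the distal intervals. Its interval (chr2:105779293-105779782, about 111 kb after P0) had 314 counts in replicate 1 and 291 in replicate 2, a density of 641 and 594 and a mean of 617 ± 33.5. The interval held all of the conserved SIMO core and 60.6% of the wider annotated element. CE3 was 2.65 ± 0.270 times as dense.

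CE2, listed in RefSeq for the diencephalon and heart, had a density of 481 and 502 in its interval (chr2:105687536-105688642), a mean of 491 ± 15.0. CE3, whose interval begins 858 bases past the end of this one, was 3.32 ± 0.0569 times as dense. CE2 could not be separated from Pα, since their library ranges overlapped. The interval covered 80.8% of the CE2 element.

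The other 6 of the 10 densest distal intervals had means between 193 and 463 normalised counts per kb. HS6, a DNase I hypersensitive site of a lens cell line that lies in Elp4, measured 458 and 468. An unannotated interval 52.4 kb before P0, in the Pax6os1 intron, measured 499 and 416. Another in Elp4, 122 kb after P0, measured 385 and 464. These 3 could not be placed in an order, because each overlapped its neighbour between libraries. The interval 52.4 kb before P0 also overlapped the library ranges of CE2 and Pα. The remaining intervals of the 10 lay 147 kb before P0 (347 and 316, intergenic and nearest to Rcn1), 47.2 kb before it (208 and 209) and 51.4 kb after it (185 and 201, in Elp4).

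The 3 lowest intervals had means of 28.8, 37.1 and 46.5 normalised counts per kb. The lowest (chr2:105701851-105702874) had 30 and 29 counts and overlapped a coding exon of Elp4. The next (chr2:105627149-105627323) had 5 and 8 counts, the fewest of any member, and the third (chr2:105697725-105699025), just past the end of Pax6, had 54 and 67. From the lowest to CE3, density spanned a factor of 56.6. Along the whole order, 13 of the 26 pairs of neighbours overlapped between libraries.

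**Figure D2:**
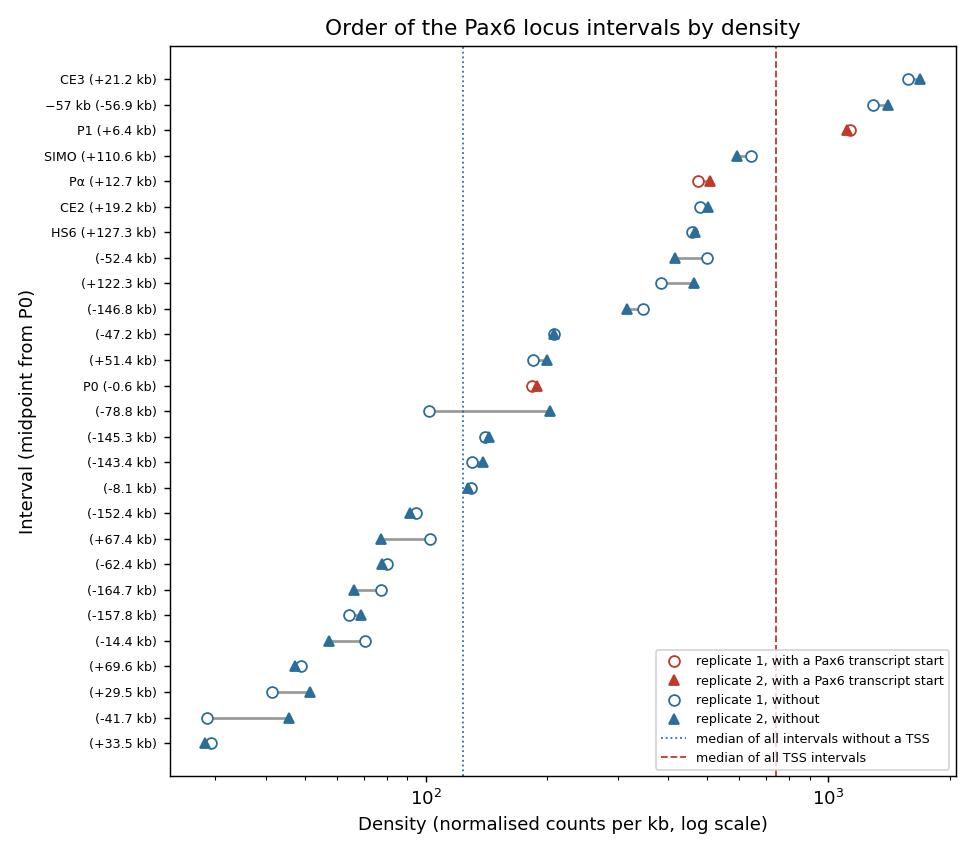
The 27 intervals in order of mean density (normalised counts per kb, log scale), with both replicates of each and grey lines between them. Dotted and dashed lines give the median of all distal intervals (124) and of all TSS intervals (742), and P1 is the only Pax6 promoter above the second.

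Accessibility was concentrated in a few intervals. The 27 members held 12448 counts in replicate 1 and 12924 in replicate 2, or 0.0391% and 0.0408% of all counts, over 29.5 kb. The 5 members with the most counts, P1, the −57 kb interval, CE3, Pα and P0, held 74.4% and 74.8% of them. The 3 TSS intervals held 41.8% of the counts in replicate 1 (95% Wilson interval 40.9 to 42.7) and 40.7% in replicate 2 (39.9 to 41.6). These intervals cover counting error only.

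The 5 intervals that overlap the Pax6 gene region from the P0 interval to CE3 took 60.2% ± 0.399 of the counts (SD, n = 2). The 8 upstream intervals nearest to Pax6 took 26.2% ± 0.476, and most of that came from the −57 kb interval. The 8 intervals past the end of the gene took 10.6% ± 0.0481, and the 6 nearest to Rcn1 took 3.04% ± 0.125. Over the distal intervals, density did not follow distance from P0 (Spearman's rho 0.03, n = 24 intervals of the same 2 libraries).

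A mean normalised count over 100 was reached by 14 of 27 members (51.9%, 95% Wilson interval 34.0 to 69.3), beside 38.8% of all intervals. The background share lies inside that interval. The interval treats neighbouring members, read in the same libraries, as independent and is wide, so it cannot decide whether the shares differ. Among the 24 distal members, 11 passed (45.8%), beside 30.8% of all distal intervals. The median density of the distal members was 135 ± 7.94 normalised counts per kb and that of all distal intervals 124 ± 2.05, a ratio of 1.06 in replicate 1 and 1.12 in replicate 2. By normalised count per interval the ratio was 1.46 ± 0.0600, with longer members at the locus (median length 710 bases against 525 over all intervals).

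RefSeq lists 15 enhancers at the locus, many of them overlapping fragments of the same element, and 9 of the 15 (60.0%) shared at least 1 base with an interval. Over the whole genome, 60% of 1015 RefSeq enhancers did, so the share at the locus equals the background. CE2, CE3 and SIMO were among those with an interval. The fragments at the site named NRE, one of them listed as an enhancer in retina, lay wholly within the Pα interval, so their accessibility and that of the Pα promoter cannot be told apart. The eye and pancreas fragments about 2 kb before P0 lay in whole or in large part within the P0 interval, and a CTCF-bound enhancer-blocking element lay wholly within it, so these share its single count too.

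The 6 enhancers without an interval were the pancreas fragment, the lens and cornea element with its shorter versions about 4 kb before P0, a photoreceptor element between P0 and P1, and CE1, listed for the late eye. An element without an interval has no count in the table, so no level and no upper limit can be given for it, and it was not shown to be closed. Of the 21 DNase I hypersensitive sites that RefSeq lists here, 11 overlapped an interval and 10 did not, among them HS1, HS2 and HS3 between SIMO and HS6. The site named RB, whose human counterpart RefSeq describes as a brain enhancer, was also without an interval. The interval of 2744 bases about 8 kb before P0 held the start of Paupar, a long non-coding RNA gene next to Pax6, and had 355 counts in replicate 1 and 349 in replicate 2. Its density was 129 and 127, close to the median of all distal intervals. By mean normalised count, 352, this wide interval stood at percentile 91.6 of all distal intervals.

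At the locus 2 of 27 members differed by over 1.5-fold between the libraries, and each had a mean normalised count under 100. The share of all intervals past this fold was not computed, so the count has no background beside it. The two-sided exact binomial test with Benjamini-Hochberg adjustment over all intervals called 0 of 27 members at an adjusted p under 0.01, as it called 0% of all 119502. At an unadjusted p under 0.05 it picked 4 of 27, beside 8.39% of all intervals. The 4 were CE3 (p = 0.0403, exact binomial test, 1.07-fold higher in replicate 2), the −57 kb interval (p = 0.00240, exact binomial test, 1.09-fold), the interval 122 kb after P0 (p = 0.0377, exact binomial test, 1.21-fold) and one 78.8 kb before P0. This last interval (chr2:105589859-105590242) had 39 counts in replicate 1 and 78 in replicate 2, and its adjusted p of 0.198 by the exact binomial test was the lowest at the locus. The test sets 1 library against 1 other, allows for counting error only and says nothing of conditions. The share of all intervals that it picked at an unadjusted p under 0.05 shows a spread beyond that error.

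Replicate 2 was higher at 15 members and replicate 1 at 12. The log2 ratio of replicate 2 to replicate 1, with a pseudocount of 1, had an SD of 0.27 over the 27 members and 0.38 over all intervals. Over the 14 members with a mean over 100 it was 0.13, beside 0.14 over all such intervals. Of those 14, the interval 122 kb after P0 had the largest difference, 232 counts against 280, a log2 ratio of 0.27. Whether the replicates were separate cultures is not stated in the labels, so this spread may be technical.

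**Figure D3:**
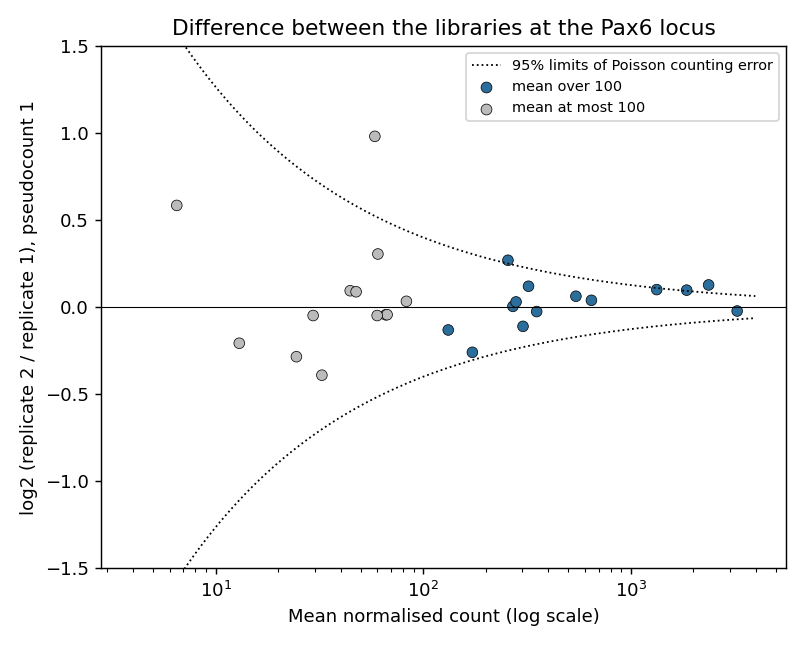
The log2 ratio of replicate 2 to replicate 1 against the mean normalised count (log scale) for the 27 intervals, blue for a mean over 100 and grey otherwise, with dotted limits of Poisson counting error. The point at 0.98 is the interval with 39 and 78 counts, and the 5 intervals with the most counts lie within 0.13 of 0.

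Base composition changed along the locus. The 7 members within Elp4 were poor in G and C, from 36.1% to 42.0% with a median of 38.0% and lay between percentiles 0.721 and 12.2 of all distal intervals. SIMO was the poorest. The 14 distal intervals before P0 ranged from 43.4% to 55.5%, with a median of 50.6%, and the median of all distal intervals was 48.4%. P1 had a GC content of 58.5%, P0 56.0% and Pα 54.5%, beside a median of 59.5% over all TSS intervals. The ratio of observed to expected CpG was 0.70 at P1, 0.56 at P0 and 0.47 at Pα, beside 0.66 over all TSS intervals.

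Of the 10 motifs, TAATTA was found in the central 300 bases of 5 of the 24 distal members (20.8%), beside 7.82% of all distal intervals, and 4 of the 5 were among the GC-poor intervals of Elp4. ACAATG, a SOX motif, was in 4 of 24 (16.7%), beside 23.6%. Those 4 were CE3, SIMO, HS6 and the interval 52.4 kb before P0, each with at least 2 matches and with means from 458 to 1632 normalised counts per kb. ACAAAG was in 7 of 24 (29.2%), beside 34.0%, and these had means from 28.8 to 332. CATATG (5.68% of all distal intervals), the POU motif (2.26%), the GLI motif (0.496%) and DR5 (0.0784%) were in none of the 24 windows, which says nothing about the factors that bind them. These counts were described after the matches had been seen and carry no test.

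The promoter density of Pax6, taken over its 3 TSS intervals together, was 573 in replicate 1 and 580 in replicate 2, a mean of 577 ± 4.65. It stood at percentile 53.9 of 21951 protein-coding genes, of which those without a TSS interval were placed lowest, and at percentile 32.3 of the 14945 genes (68.1%) that had one. By normalised count over its TSS intervals, which together spanned 9073 bases, Pax6 stood at percentile 99.7. The order of genes below is per kb and turned in part when counts were taken instead. Within the Pax family of 9 genes, 8 of which had a TSS interval, Pax6 came after Pax5 (875 ± 31.2), Pax2 (629 ± 53.9) and Pax9 (615 ± 17.4) in density but was first by count, with 5233 normalised counts beside 2427 for Pax2, 2426 for Pax9 and 1591 for Pax5. The density libraries of Pax2, with 667 and 591, and of Pax9, with 628 and 603, lay above those of Pax6 but near them. Pax3 and Pax7, genes of dorsal progenitors, had 358 ± 1.49 and 286 ± 15.3, and Pax4, a gene of the pancreas, had no TSS interval.

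Among 9 genes of the ventral neural tube network, 8 had a TSS interval and 7 of those were denser than Pax6. By count this turned, and Pax6 (5233) exceeded all of them, the nearest being Nkx2-2 (3826) and Irx3 (3558). In density, Nkx6-1, which marks ventral progenitors, had 1452 ± 27.3, Olig2 946 ± 23.2, Sox2, a gene of neural progenitors, 862 ± 25.8, and Nkx2-2, which marks p3, 711 ± 19.9. Dbx1, a gene of more dorsal progenitors, was the one below Pax6 in its mean, with libraries of 589 and 524 that spanned those of Pax6. In the eye field list, 5 of 6 genes had a TSS interval, and only Lhx2 (678 ± 37.0) was denser than Pax6, while Six3 had none. In the pancreatic islet list, 3 of 5 had one, beside 68.1% of all genes, with densities of 908 ± 22.6 at Mafa, 663 ± 37.2 at Pdx1 and 284 ± 14.0 at Ptf1a, and the hormone genes Ins2 and Gcg had none.

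Marker lists of pMN cells, of other cells that the gate could hold and of dorsal progenitors were set beside the median promoter density of all protein-coding genes, 490. That median, like those of the lists, counts genes without a TSS interval as 0, and 68.1% of all genes had one. The 4 genes of the pMN list, Pax6 among them, ranged from 577 to 1452 with a median of 904, and the p3 markers Nkx2-2 and Nkx2-9 had 711 and 942. Of the pMN list only Olig2 defines pMN. Per the study, NKX6.1 is also present in p2 and p3, SOX2 is broadly expressed, and PAX6 is lower in pMN than in more dorsal progenitors. Of 5 motor neuron markers 4 had a TSS interval, with Isl2 at 2268 ± 182, Mnx1 at 557 ± 52.1, Isl1 at 472 ± 8.69 and Lhx3 at 366 ± 11.9, while Chat had none, and the list median was 472. The 4 dorsal markers ranged from 250 to 790 with a median of 322. Per kb, the medians of the pMN and p3 lists thus lay above that of all genes and those of the motor neuron and dorsal lists below it. The median of all TSS intervals was higher, 742, and Nkx2-2 lay below it. A median over only the genes with a TSS interval was not taken. By normalised count over the TSS intervals, the motor neuron and dorsal medians did not lie below that of all genes. Isl1, Isl2, Mnx1 and Lhx3 stood at percentiles 80.7, 69.9, 63.5 and 61.7 of all genes by count, with Chat lowest. Msx1, Pax7 and Pax3 stood at 65.3, 54.0 and 52.9, and Olig3 at 40.9. The genes of the pMN and p3 lists stood at 87.4 (Olig2) or higher. The part of other cell types in the values at Pax6 was not tested.

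**Figure D4:**
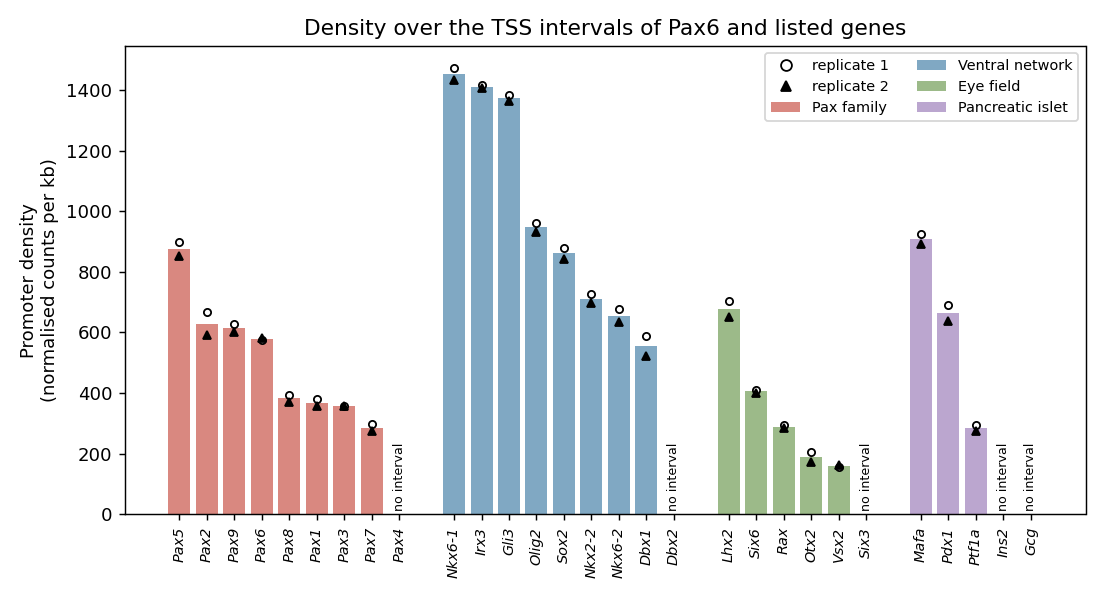
Promoter density (normalised counts per kb over the TSS intervals of a gene) for Pax6 and the genes of 4 lists, as bars for the mean and symbols for the 2 replicates. Pax6, at 577, follows Pax5, Pax2 and Pax9 in the Pax family, and genes without a TSS interval are marked as such.

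Pax6 had 18 nearest intervals, more than 93.1% of protein-coding genes. The neighbouring gene Rcn1 also had 18. The median gene had 3, Olig2 had 19, Nkx6-1 had 31 and Sox2 had 77. In a window of 400 kb centred on the first start site, Pax6 had 28 intervals, close to the median of 27 over all protein-coding genes, and Nkx6-1 had 30, Sox2 41 and Olig2 53. The widest gap between neighbouring members, of 64166 bases, lay between the intervals 143 and 78.8 kb before P0.

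The genes on either side had promoters denser than that of Pax6, taken over its 3 TSS intervals together. By normalised count Pax6 (5233) exceeded both Rcn1 (2229) and Elp4 (1350). The TSS interval of Rcn1, which encodes a calcium-binding protein of the endoplasmic reticulum (chr2:105397662-105399752), had 2208 counts in replicate 1 and 2251 in replicate 2, and a mean density of 1066 ± 13.9. Elp4 and Immp1l, whose product is a mitochondrial peptidase subunit, share the interval of their divergent start sites (chr2:105904009-105905104), with 1393 and 1307 counts and a mean of 1232 ± 56.2. Both intervals lay outside the window and were no members. In density P1 alone, at 1121 ± 12.3, lay between them, while P0 and Pα lay below both. By mean normalised count P1 (3254) lay above both, Pα (1333) was close to the Elp4 interval and P0 (646) lay below both.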

How the data were processed

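Live sorted Olig2-mKate2 cells were profiled by ATAC-seq in 2 replicates of 1 group. The authors deposited raw fragment counts per interval, made per the file header with featureCounts 2.0.1 on read pairs, each pair being assigned to every interval that took in at least a fraction of 0.2 of it. Reads were aligned to mm10 and peaks called by MACS in the authors' pipeline. The intervals came from 5 libraries, and 3 columns that belong to no sample here were not used, so weak intervals and intervals missing here depend on those libraries too.

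Totals were 31876165 and 31672240 counts. DESeq2 (1.42.0) supplied the size factors, density was the scaled count per kb, and edgeR (4.0.16) TMM factors and total counts were alternatives. Start sites were every GENCODE (release M21) transcript start of a protein-coding gene. Libraries were compared with a two-sided exact binomial test (scipy 1.17.1) and Benjamini-Hochberg adjustment over all intervals. On simulated data for this comparison it recovered 189 of 200 2-fold changes among 119502 intervals, with 0 false calls. The simulated counts held counting error only. The changes were placed only in intervals with a summed count of at least 200, so recovery at weaker intervals was not tested. Sequences and elements came from the RefSeq GRCm38.p6 genome and annotation. Python 3.11.15 with pandas 2.3.3 was used. Named intervals were all Pax6 TSS intervals, the 10 densest distal intervals, the 3 lowest members, the largest library difference with a mean over 100, the neighbours' promoters and the listed genes. The members and lists were chosen with earlier results of these data known.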

Additional observations from a re-analysis of the deposited data

How the results depend on the processing

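Of 61 alternative values for the results above, 47 stayed within the limits used (1.5 times for counts of intervals and ranks, 1 SD of the replicates or a 95% interval for the rest) and 14 moved past them. A change of direction was not scored. Those within the limits include 18 in place of 27 intervals with the nearest-gene rule alone, at the limit itself, and an SD of 0.21 in place of 0.27 with a pseudocount of 10. Counting per interval in place of density gave 646 for P0, 3254 for P1 and 1333 for Pα, a ratio of 1.46 for the distal medians, rank 145 for the highest distal interval (then the −57 kb interval) and percentile 99.7 for the Pax6 promoter. Start sites of all annotated genes raised the share of counts in TSS intervals to 44.0%, since the Paupar interval joined them. Start sites of protein-coding transcripts only, an alternative chosen after seeing the data, left out the Pα interval and gave 30.8% and a promoter percentile of 55.5. Start sites within 1 kb gave 54.8, and genes with a TSS interval alone, also chosen after seeing the data, gave 32.3. With 1 start site per gene, Pax6 stood at percentile 93.9 by number of nearest intervals, and at 96.7 with only intervals of a mean over 100. Intervals with a mean over 100 alone gave an SD of the log2 ratio of 0.13. Leaving out each replicate in turn gave 377 to 480 for the rank of CE3 and 53.3 to 54.5 for the promoter percentile. It gave 184 to 189 for P0, 1113 to 1130 for P1, 475 to 509 for Pα, 1.06 to 1.12 for the distal ratio and 40.7% to 41.8% for the share in TSS intervals. The share of members with a mean over 100 stayed at 51.9%. No paired analysis was possible because the series holds 1 group and nothing to pair it with. Members with few counts, such as 5 and 8, have a counting error too wide for an order among them.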
